A study of Pleurotus ostreatus with 53 samples.

Results

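HELPO1 is a group of Helitron families in the genome of the oyster mushroom Pleurotus ostreatus. The copies described here are the 15 of 1051 listed transposable element (TE) copies whose name begins with HELPO1, of which 7 are named HELPO1, 3 HELPO1.1 and 5 HELPO1.2. A copy belongs to the group by its name alone. Levels of mRNA, small RNA and CG methylation were measured in 6 groups of 3 libraries per assay, except that bisulfite sequencing of the primordium had 2. PC15 and PC9 are monokaryotic strains grown as mycelium, so each carries a single kind of nucleus. N001_HyB is mycelium of a dikaryon made by mating PC9 with PC15. The N001 dikaryon, whose strain field reads N0001, was sampled as mycelium (N001_M), primordium (N001_P) and fruitbody (N001_F). The series description speaks of 3 biological replicates without saying which cultures they came from, so p-values measure the spread between these libraries.

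Helitrons are DNA transposons that move by rolling-circle replication. Autonomous copies encode a Rep/helicase protein, and many copies are shorter derivatives that lack it. Helitrons are also known for picking up pieces of host genes. In fungi, cytosine methylation in the CG context and small RNAs are both associated with the silencing of TEs, while mRNA reads on a copy show that it, or sequence read through it, is transcribed.

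The 15 copies lie on 7 scaffolds of a genome assembly whose build the sources do not name, and each is called here by its family, its scaffold and a letter in order along the scaffold. Of them, 6 copies are at least 5 kb long. HELPO1.2-1A is the longest, at 13748 bases (scaffold 1, 1404200 to 1417947). The next 4 are close to each other in length: HELPO1-7A has 7186 bases (scaffold 7, 1387822 to 1395007), HELPO1-7B 7183 (scaffold 7, 1521533 to 1528715), HELPO1.2-11C 7140 (scaffold 11, 756984 to 764123) and HELPO1.1-5A 7106 (scaffold 5, 1418337 to 1425442). HELPO1-11B has 5241 bases (scaffold 11, 702335 to 707575). The copies of middle length are HELPO1-8A, with 1494 bases (scaffold 8, 423643 to 425136), and HELPO1.1-2B, with 1481 (scaffold 2, 1762525 to 1764005).

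The remaining 7 copies are fragments under 500 bases. They are HELPO1-1B (252 bases, scaffold 1, 3742549 to 3742800), HELPO1-5B (150 bases, scaffold 5, 1916252 to 1916401), HELPO1.1-7C (143 bases, scaffold 7, 2741056 to 2741198), HELPO1-2A (106 bases, scaffold 2, 988989 to 989094), HELPO1.2-8B (82 bases, scaffold 8, 1076621 to 1076702), HELPO1.2-10A (240 bases, scaffold 10, 1356509 to 1356748) and HELPO1.2-11A (49 bases, scaffold 11, 701926 to 701974). Another listed TE shares bases with 3 of the copies, so reads there cannot be assigned to HELPO1 alone: HELPO1.2-1A holds a Gypsy_1 copy of 6567 bases and a stretch of 62 bases of Gypsy_10, HELPO1.2-8B shares 44 bases with Gypsy_47, and all 240 bases of HELPO1.2-10A lie inside Gypsy_29. No source states how reads matching several copies were counted, and values of copies alike in sequence are uncertain for that reason.

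Library totals ran from 19628882 to 30123572 reads for mRNA and from 191411 to 5746479 for small RNA. A level in RPM is a copy's reads scaled to these totals, which for small RNA are the reads counted in genes and TE copies. Total TE mRNA was 14642 RPM in PC15, 2299.7 in PC9, 3412 in N001_HyB, 2036.5 in N001_M, 1243.5 in N001_P and 1203 in N001_F, as means of 3 libraries. Small RNA replicate 1 of PC9 stood apart from the other PC9 libraries: 1857575 of its 5746479 reads lay in TE copies, against 88328 of 1275284 and 57425 of 800397. In mRNA, replicates 2 and 3 of N001_HyB and of N001_P were much closer to each other (chi-square per degree of freedom over genes of 3.77 and 1.55) than other pairs of a group (25.7 to 515). In bulk samples, fewer cells of a type and less RNA per cell cannot be told apart.

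The summed mRNA of the 15 copies was 1375 ± 68.4 RPM in PC9 (SD, n = 3) and between 229 and 392 RPM on average in the other groups. PC15 had 392 ± 82.1 RPM, N001_HyB 353 ± 5.38, N001_M 291 ± 46.5, N001_P 229 ± 74.7 and N001_F 263 ± 24.6. All 3 PC9 libraries (1334 to 1454 RPM) lay above all 15 libraries of the other groups, whose highest was 452 RPM in PC15. HELPO1 copies held 60.1% ± 5.50 of all TE mRNA reads in PC9, 2.70% ± 0.70 in PC15, 10.3% ± 0.026 in N001_HyB, 14.3% ± 1.33 in N001_M, 18.2% ± 3.75 in N001_P and 21.9% ± 1.82 in N001_F. Relative to all TE reads, the order therefore differed: N001_HyB then stood above PC15, N001_M above N001_HyB, and N001_P and N001_F above N001_M, each the opposite of the order of the RPM means. No p-value is given for the summed levels, because the HELPO1 families were picked for description with results of these data known; 3 libraries against 3 could not give an exact permutation p under 0.1 in any case.

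**Figure D1:**
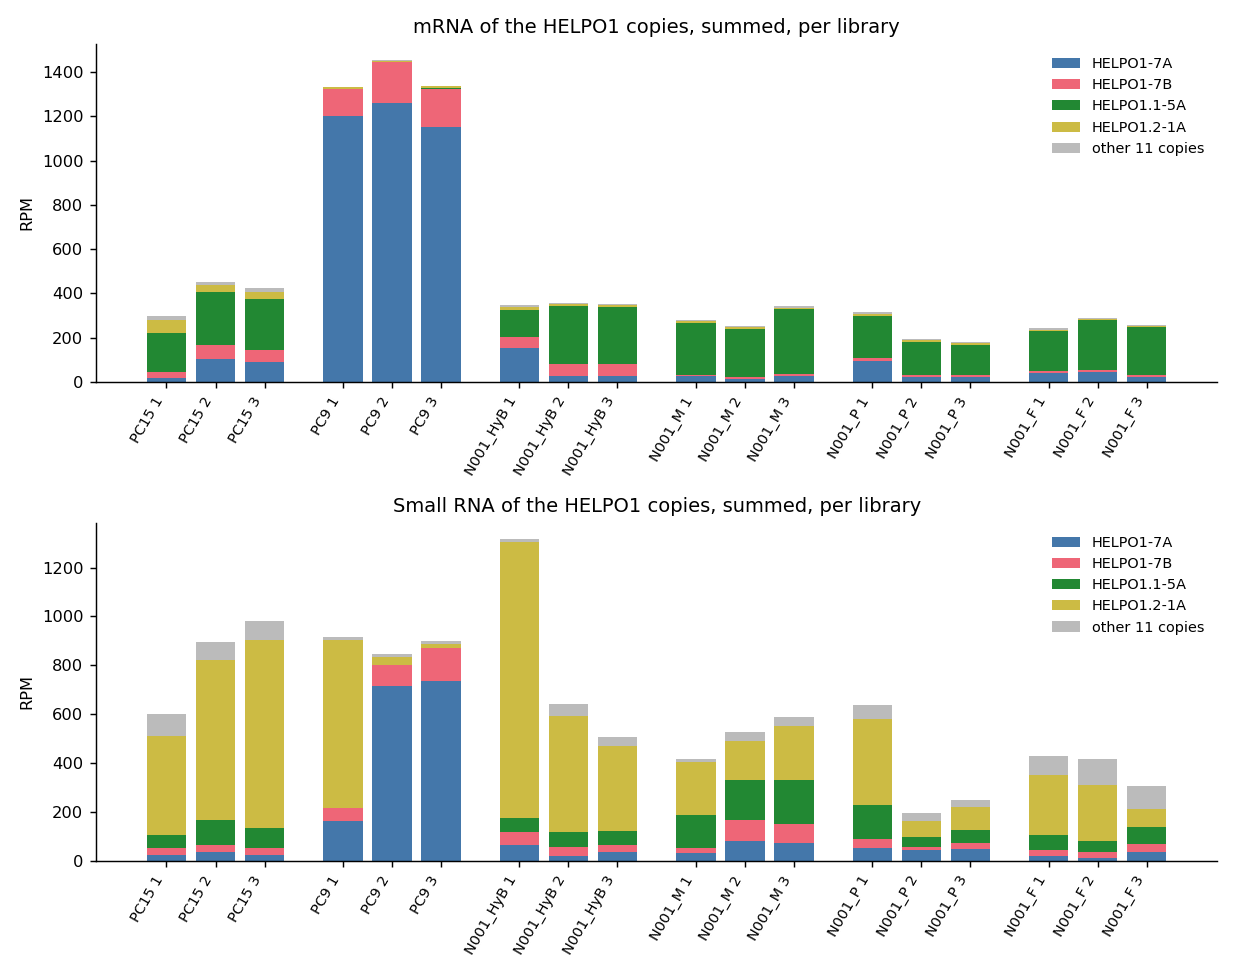
Summed mRNA (upper panel) and small RNA (lower panel) of the 15 HELPO1 copies in RPM, 1 bar per library, with the 4 copies that held most reads coloured and the other 11 in grey. HELPO1-7A makes up most of the mRNA in the 3 PC9 libraries and HELPO1.1-5A most of it in N001_M, N001_P and N001_F; in small RNA, replicate 1 of PC9 differs from the other PC9 libraries in which copy holds the reads.

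Behind these sums stood different copies in different groups. HELPO1-7A held 87.7% ± 2.19 of the HELPO1 mRNA in PC9, where it ranked 1 of all TE copies both in RPM and per kb. HELPO1.1-5A held 55.2% ± 3.22 in PC15, 60.5% ± 22.2 in N001_HyB, 85.9% ± 1.53 in N001_M, 71.9% ± 9.73 in N001_P and 78.8% ± 5.26 in N001_F. It ranked 12 among TE copies by RPM in PC15 and 1 in N001_F. At the other end, HELPO1.2-11A had no mRNA read in any of the 18 libraries, and 5 copies (HELPO1-1B, HELPO1-2A, HELPO1.1-2B, HELPO1.1-7C and HELPO1.2-11A) had none in the 9 libraries of N001_M, N001_P and N001_F. In PC9, 7 copies had no mRNA read. Most of the 1051 TE copies had none there either: copies without a read in PC9 shared rank 470 by RPM. The shared rank was 477 in N001_M, 470 in N001_P and 493 in N001_F, so most TE copies also had no read within each of these groups.

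HELPO1-7A, a copy of 7186 bases on scaffold 7, had the highest mRNA level of any member. Its level was 1202, 1262 and 1152 RPM in the PC9 libraries, against 17.4, 103 and 88.7 RPM in PC15. N001_HyB had 152, 28.4 and 27.7 RPM. The N001_M libraries had 25.3, 14.02 and 25.8 RPM, N001_P 94.8, 23.6 and 22.5 and N001_F 40.6, 44.9 and 24.0. The PC9 libraries thus stood far above all others, and within PC15, N001_HyB and N001_P replicate 1 lay well away from replicates 2 and 3, below them in PC15 and above them in the dikaryons.

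HELPO1.1-5A, the copy of similar length on scaffold 5, showed the opposite order between the monokaryons. It had 175, 238 and 230 RPM in PC15 and only 2.02, 1.51 and 2.01 RPM in PC9. N001_HyB had 121, 262 and 259 RPM, and N001_M had 236, 221 and 292. The N001_P libraries had 191, 151 and 138 RPM and the N001_F libraries 179, 226 and 216. PC9 alone was low, and the 15 libraries of the other groups all lay above 120 RPM. In N001_HyB, replicate 1 was the lowest library for HELPO1.1-5A and the highest for HELPO1-7A, while the sum over all copies differed little between replicates (347 to 358 RPM).

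HELPO1-7B, the other long copy on scaffold 7, was also highest in PC9 and was low in the N001 stages. It had 27.0, 63.5 and 55.6 RPM in PC15, 122, 183 and 174 in PC9 and 50.5, 53.2 and 53.1 in N001_HyB. Levels were 5.74, 5.78 and 9.86 RPM in N001_M, 11.6, 7.10 and 7.25 in N001_P and 8.37, 9.86 and 7.04 in N001_F. No N001_M, N001_P or N001_F library reached the lowest library of PC15, PC9 or N001_HyB.

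The remaining copies with most mRNA were highest in PC15. HELPO1.2-1A, which contains the Gypsy_1 insertion, had 58.7, 31.8 and 32.9 RPM in PC15 and 4.69, 5.85 and 7.82 in PC9. In N001_HyB it had 16.4, 9.88 and 9.84 RPM, and in the N001 stages the means were 7.73 ± 0.79, 7.30 ± 0.67 and 6.32 ± 1.57 RPM (N001_M, N001_P and N001_F, SD, n = 3). HELPO1-8A had 6.02, 8.36 and 7.83 RPM in PC15 and 1.21, 0.205 and 0.268 in PC9. It had 4.54, 2.34 and 2.21 RPM in N001_HyB, 1.33, 1.40 and 3.45 in N001_M, 8.25, 3.21 and 2.52 in N001_P and 4.85, 2.33 and 1.95 in N001_F, so these 4 groups overlapped. HELPO1.2-11C had 8.87, 4.27 and 5.51 RPM in PC15, 0.89, 1.39 and 1.65 in PC9 and 0.98, 0.46 and 0.67 in N001_HyB, and no N001 stage library passed 1.33 RPM. Per kb, HELPO1-7A reached 168 RPM in PC9, HELPO1.1-5A 35.1 in N001_M, and HELPO1.2-11C, of nearly the same length, at most 0.87 in PC15.

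**Figure D2:**
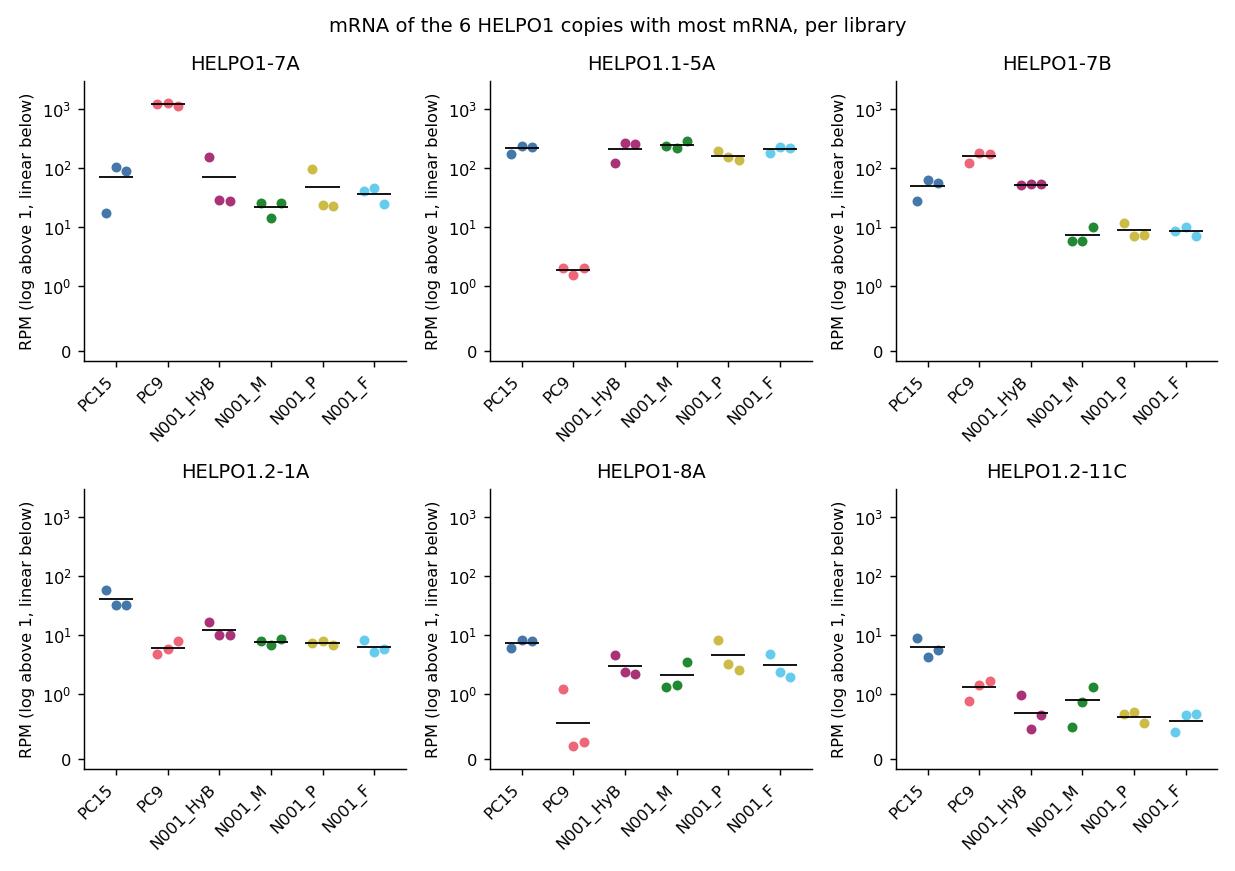
mRNA level in RPM (y axis, logarithmic above 1 and linear below) of the 6 HELPO1 copies with the highest mean mRNA; each point is 1 library (replicates 1 to 3 from left to right) and each line the group mean. HELPO1-7A and HELPO1-7B are highest in PC9, HELPO1.1-5A and HELPO1-8A are lowest there, and HELPO1.2-1A and HELPO1.2-11C are highest in PC15.

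Between the monokaryons, 7 of the 8 members that passed the filter on low counts differed in mRNA by edgeR's quasi-likelihood test. The other 7 members did not pass it and were not tested. In PC9, 2 of the 8 were higher than in PC15, where the background over all 428 TE copies tested was 3.74%, and 5 were lower, where it was 84.8%. The median log2 fold change was -2.49 over the 8 members and -7.37 over all copies tested. HELPO1-7A was 17.3-fold higher in PC9 (log2 fold change 4.11, SE 0.71, edgeR adjusted p = 5.65e-06) and HELPO1-7B 3.28-fold higher (1.71, SE 0.43, edgeR adjusted p = 0.000576). HELPO1.1-5A was 116-fold lower (-6.86, SE 0.53, edgeR adjusted p = 2.88e-12). These calls held under all 13 alternatives run. HELPO1.1-5A had no methylation value in PC9, and whether the copy exists in the PC9 genome was not tested.

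The other lower calls in PC9 were smaller or rested on fewer reads. HELPO1-8A had a log2 fold change of -3.70 (SE 0.74, edgeR adjusted p = 3.35e-05), which was -1.10 under TMM factors and -0.57 under DESeq2's size factors, both taken from TE reads, and was then not called. HELPO1.2-1A had -2.75 (SE 0.46, edgeR adjusted p = 3.15e-06), which was -0.16 under those TMM factors and turned to 0.29 under those DESeq2 size factors, neither of them called. HELPO1.2-11C had -2.24 (SE 0.63, edgeR adjusted p = 0.00171), which turned to 0.35 and 0.79 under the same settings, neither called. HELPO1.2-10A, the fragment inside Gypsy_29, had 1.39 ± 0.56 RPM in PC15 and no read in PC9, and was at least 33.2-fold lower there, counting 3 reads over the group as the limit that a count of 0 allows. This fragment was highest in PC15 and so passed the filter mainly through a group it was then compared with. Its lower call is therefore not independent of the filter. It also had no methylation value in PC9, and whether it exists in the PC9 genome was not tested. HELPO1-5B, at 1.80 ± 0.21 RPM in PC15 and 0.83 ± 0.14 in PC9, did not pass the test (-1.12, SE 0.63, edgeR adjusted p = 0.097), and its values over the alternatives ran from -1.26 to 1.93.

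The split over all TE copies differed with the scaling within each test, and the number of copies tested differed too. In edgeR with library totals, 16 of 428 copies were higher and 363 lower in PC9 than in PC15 (median log2 fold change -7.37), against 58 and 205 of 304 under TMM factors from TE reads (median -4.96). In DESeq2 with library totals, 22 of 578 were higher and 371 lower (median -5.77), against 85 and 217 of 526 under its own size factors (median -3.06). For N001_HyB against PC15, the edgeR split was 19 higher and 314 lower with library totals and 56 and 141 under TMM factors, and the DESeq2 split was 24 and 287 with library totals and 82 and 135 under its own. For N001_HyB against PC9 these splits were 187 and 23, 135 and 38, 171 and 26, and 125 and 51. For N001_M against N001_HyB they were 7 and 161, 29 and 117, 11 and 139, and 35 and 109, in the same order.

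N001_HyB carries nuclei of both monokaryons, and the mean mRNA of HELPO1-7A, HELPO1-7B and HELPO1.1-5A there, scaled to library totals, did not pass the test against PC15. HELPO1-7A averaged 69.5 RPM in N001_HyB, 69.7 in PC15 and 1205 in PC9, where the mean of both monokaryons is 637. For HELPO1-7B the values were 52.3 RPM in N001_HyB, 48.7 in PC15 and 159.5 in PC9, and for HELPO1.1-5A 214 RPM in N001_HyB, 215 in PC15 and 1.85 in PC9. The summed level of 353 RPM compared with a mean of both monokaryons of 883. Against PC15, 0 of 8 members were higher (background 4.44%) and 3 were lower (background 73.4%): HELPO1.2-1A (-1.77, SE 0.44, edgeR adjusted p = 0.000648), HELPO1.2-11C (-3.12, SE 0.66, edgeR adjusted p = 0.000121) and HELPO1.2-10A (-4.79, SE 0.94, edgeR adjusted p = 6.03e-05). The HELPO1.2-1A difference turned to 0.052 under TMM factors and 0.33 under DESeq2's size factors, both from TE reads, and was then not called. HELPO1.2-10A, at 1.39 RPM in PC15 and 0.050 in N001_HyB, passed the filter mainly through PC15, so its lower call is not independent of the filter. Without replicate 1 of N001_HyB, 5 members were called lower (78.6% of all copies tested).

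For HELPO1-7A, HELPO1.1-5A and HELPO1-7B the log2 differences between N001_HyB and PC15 were -0.0033 (SE 0.63), -0.0041 (SE 0.41) and 0.10 (SE 0.42), with edgeR adjusted p-values of 0.996, 0.994 and 0.825. Scaled to TE reads, all 3 were called higher in N001_HyB, by 1.62, 1.87 and 1.91 under TMM factors (edgeR adjusted p = 0.0281, 0.000272 and 0.000307) and by 1.98, 2.16 and 2.22 under DESeq2's size factors (DESeq2 adjusted p = 0.0135, 4.64e-09 and 1.12e-09). DESeq2's size factors also gave HELPO1-5B as higher (0.87, DESeq2 adjusted p = 0.0418). DESeq2 with library totals gave it as lower (-1.23, DESeq2 adjusted p = 0.00188), where 49.7% of all copies were called lower. HELPO1-5B was not called by edgeR with library totals (-1.22, edgeR adjusted p = 0.0786). Of all copies, 18.4% were called higher under the TMM factors and 17.4% under DESeq2's, while HELPO1.2-10A and HELPO1.2-11C were called lower under both. Without replicate 1 of N001_HyB, HELPO1-7A was called lower (-1.31, edgeR adjusted p = 0.0339), while HELPO1.1-5A and HELPO1-7B were called in none of the fits that left out 1 library. Against PC9, 2 of 8 members were higher in N001_HyB (background 43.7%), HELPO1.1-5A by 6.85 (SE 0.53, edgeR adjusted p = 9.91e-12) and HELPO1-8A by 2.42 (SE 0.71, edgeR adjusted p = 0.0053), and 2 were lower (background 5.37%), HELPO1-7A by -4.12 (SE 0.71, edgeR adjusted p = 1.71e-05) and HELPO1-7B by -1.61 (SE 0.43, edgeR adjusted p = 0.0025). The comparisons with PC9 and PC15 share libraries and are not independent of each other.

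Between the dikaryon mycelia, 1 of 8 members was higher in N001_M than in N001_HyB (background 1.64%) and 2 were lower (background 37.6%). HELPO1-7B was 7.33-fold lower in N001_M (log2 fold change -2.87, SE 0.45, edgeR adjusted p = 5.25e-06), and held under all 13 alternatives. HELPO1-7A was lower by -1.68 (SE 0.65, edgeR adjusted p = 0.0387), and was called in 5 of 13 alternatives. Without replicate 1 of N001_HyB the difference was -0.37 (edgeR adjusted p = 0.706), and without replicates 1, 2 or 3 of N001_M it was -1.81, -1.45 and -1.82 (edgeR adjusted p = 0.0641, 0.148 and 0.0663). HELPO1.2-10A was higher, at 0.37 ± 0.11 RPM against 0.050 ± 0.051 RPM (2.87, SE 0.96, edgeR adjusted p = 0.0166), from a few reads per library; leaving out 1 library raised the edgeR adjusted p to as much as 0.102. HELPO1.1-5A, at 249.8 RPM against 214, did not pass the test (0.22, SE 0.41, edgeR adjusted p = 0.739). Leaving out 1 library at a time gave 1 to 3 called members, with 1 left without replicate 1 of N001_HyB or without replicate 2 of N001_M. In these fits, 1.28% to 1.91% of all copies were called higher and 28.6% to 35.1% lower.

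Along the development of N001, no HELPO1 member was called. In N001_P against N001_M, 0 of 8 members were higher (background 0.467%) and 0 lower (background 2.34%), with 0 at an unadjusted p under 0.05 (41 of all 428 copies). DESeq2 called 0 members with either scaling. In N001_F against N001_M, 0 of 8 were higher (background 1.4%) and 0 lower (background 2.34%), again with 0 at an unadjusted p under 0.05 (50 of all 428 copies). DESeq2 with library totals called 1 member lower, HELPO1-5B, named after its value was seen, and DESeq2 with its own size factors none. HELPO1.1-5A stood at 249.8 ± 37.3 RPM in N001_M, 160.1 ± 27.7 in N001_P and 207 ± 25.0 in N001_F. Its log2 difference from N001_M was -0.64 (SE 0.41) in N001_P and -0.27 (SE 0.41) in N001_F, with edgeR adjusted p-values of 0.645 and 0.918.

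CG methylation of the 15 copies ranged from near 0% to over 80%. In N001_M, 8 copies averaged at least 20% and 7 under 10%, with none between, and the counts were the same in N001_P and N001_F. PC15 had 4 copies at or above 20%, 7 under 10% and the rest between, at 14.1% to 15.8%. N001_HyB had 6 at or above 20%, 8 under 10% and HELPO1-7B between, and PC9 had 7 and 3 of the 10 copies with a value. The levels are fractions per copy as the authors deposited them, written here in percent, and the coverage behind them is unknown. Of the 982 TE copies with a methylation value in some group, 719 had one in PC9. In PC9, 5 of the 15 HELPO1 copies had no methylation value: HELPO1.1-5A, HELPO1.1-7C, HELPO1.2-10A, HELPO1.2-11A and HELPO1-11B. In the mRNA of PC9 the same copies had a mean of 1.85, 0, 0, 0 and 0.014 RPM, and whether these copies exist in the PC9 genome was not tested.

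HELPO1-8A changed most in methylation. Its level was 0.58%, 0.28% and 0.44% in the PC15 libraries and 87.6%, 89.0% and 84.9% in PC9. In N001_HyB it was 2.76%, 3.87% and 4.82%, and in N001_M 4.57%, 5.43% and 4.56%. The N001_P libraries had 5.86% and 6.60%, and the N001_F libraries 5.92%, 1.85% and 4.69%. PC9 was thus the only group above 7%, and N001_HyB lay far below 43.8%, the mean of both monokaryons.

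HELPO1.1-7C, a fragment of 143 bases with no PC9 value, separated N001 from the rest. It had 14.5%, 19.96% and 12.8% in PC15 and 10%, 5.63% and 5.52% in N001_HyB. Levels were 77.8%, 69.4% and 75.9% in N001_M, 75.2% and 85.7% in N001_P, and 77.8%, 81.0% and 76.9% in N001_F. No N001 stage library overlapped with PC15 or N001_HyB.

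HELPO1-1B was intermediate in N001_HyB. It had 13.3%, 16.8% and 17.3% in PC15, 75.4%, 77.3% and 79.6% in PC9, and 23.7%, 35.8% and 37.6% in N001_HyB. In the N001 stages it had 69.8%, 66.2% and 69.3% (N001_M), 70.5% and 68.1% (N001_P) and 68.8%, 71.3% and 59.3% (N001_F). HELPO1.1-2B had 25.1%, 25.9% and 26.1% in PC15, 57.5%, 57.5% and 57.5% in PC9, and 48.2%, 43.7% and 39.2% in N001_HyB. Its N001 stages lay between 62.5% and 67.6%, above all other libraries.

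HELPO1.2-11C followed the same order, with 27.8%, 29.3% and 29.9% in PC15, 51.2%, 54.2% and 52.0% in PC9 and 44.7%, 44.7% and 33.7% in N001_HyB. Its N001 stage libraries lay between 65.9% and 70.6%. For HELPO1.1-2B and HELPO1.2-11C the N001_HyB means of 43.7% and 41.0% were close to the means of both monokaryons, 41.6% and 40.7%. For HELPO1-1B, HELPO1.2-1A and HELPO1-7B they were lower, at 32.4% against 46.6%, 32.1% against 40.8% and 13.8% against 19.8%.

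**Figure D3:**
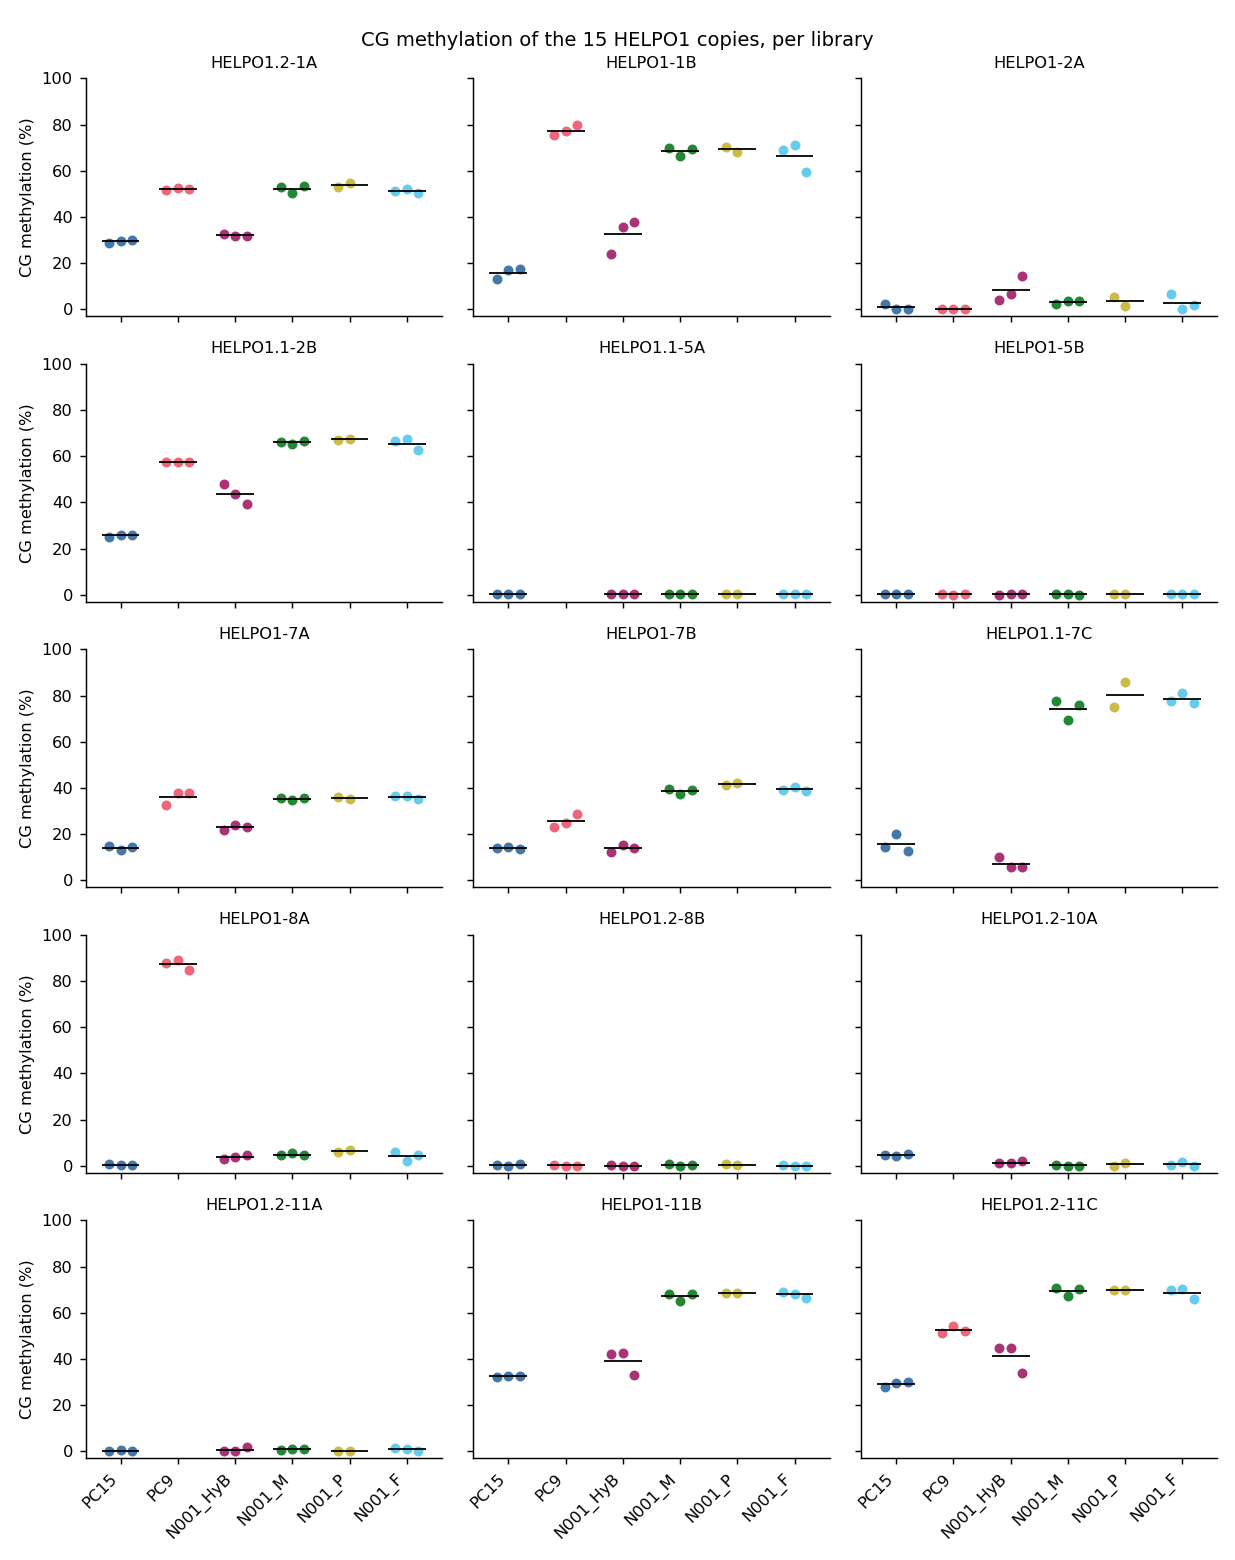
CG methylation in percent (y axis) of each of the 15 HELPO1 copies; each point is 1 library and each line the group mean, with 2 libraries in N001_P and no PC9 values for 5 copies. HELPO1-8A is at 87.2% in PC9 and at most 6.23% in the other group means, 8 copies are at 20% or more in N001_M, N001_P and N001_F, and HELPO1.1-5A, HELPO1-5B, HELPO1.2-8B and HELPO1.2-11A stay near 0 wherever they have a value.

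Of the 10 copies with a PC9 value, 7 were more methylated in PC9 than in PC15 by limma (background 79.5% of 716 copies) and 0 were less (background 4.19%). The median difference was 22.3 percentage points over the 10 copies and 28.2 over all copies tested. HELPO1-8A rose by 86.7 points (SE 1.11, limma adjusted p = 4.95e-16), HELPO1-1B by 61.6 (SE 3.46, limma adjusted p = 5.92e-10) and HELPO1.1-2B by 31.8 (SE 1.78, limma adjusted p = 5.89e-10). The long copies rose by less: HELPO1.2-11C by 23.4 points (SE 2.41), HELPO1.2-1A by 22.7 (SE 0.94), HELPO1-7A by 21.98 (SE 1.28) and HELPO1-7B by 11.5 (SE 1.36). The 3 copies not called were HELPO1-2A, HELPO1-5B and HELPO1.2-8B, with group means under 1% in both strains. All 7 calls held under the 9 alternatives run on the percentage scale. A limma fit on the log-odds of methylation called 79.7% of all copies higher and 4.61% lower, and its calls of single members are not given here.

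The N001_HyB means of HELPO1.2-1A, HELPO1-1B, HELPO1.1-2B, HELPO1-7A, HELPO1-8A and HELPO1.2-11C lay between those of PC15 and PC9. Against PC15, 8 of 15 copies were more methylated in N001_HyB (background 37.8%) and 2 less (background 10.5%), the latter HELPO1.1-7C by -8.70 points (SE 3.08, limma adjusted p = 0.0366) and HELPO1.2-10A by -3.19 (SE 0.44, limma adjusted p = 0.000102). Increases ran from 2.64 points in HELPO1.2-1A (SE 0.95, limma adjusted p = 0.0356) to 17.99 in HELPO1.1-2B (SE 1.80, limma adjusted p = 2.2e-06). Leaving out 1 library at a time gave 6 to 8 calls in place of 10: HELPO1.2-1A was called in 0 of these 6 fits, HELPO1-8A and HELPO1-11B in 1 each and HELPO1.1-7C in 2, and the other 6 copies in all 6. Of all copies, 33.5% to 37.5% were called higher in these fits and 8.89% to 11.1% lower. On the log-odds scale, with all libraries, 42.1% of all copies were called higher and 12.4% lower. Against PC9, 1 of 10 copies was more methylated in N001_HyB (background 4.74%), HELPO1-2A at 8.33% ± 5.48 against 0 in all 3 PC9 libraries, and 7 were less (background 76.3%), from -11.4 points in HELPO1.2-11C to -83.4 in HELPO1-8A.

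The N001 mycelium was more methylated than N001_HyB at 8 of 15 copies (background 72.9%) and less at 1 (background 3.83%), HELPO1.2-10A by -1.21 points (SE 0.44, limma adjusted p = 0.0268), a call that held in 4 of 8 alternatives. HELPO1.1-7C differed most, by 67.3 points (SE 3.08, limma adjusted p = 1.5e-09), followed by HELPO1-1B with 36.1 (SE 3.47, limma adjusted p = 3.53e-07), HELPO1.2-11C with 28.3 (SE 2.42, limma adjusted p = 1.03e-07) and HELPO1-11B with 28.0 (SE 2.16, limma adjusted p = 1.86e-07). HELPO1-8A, at 4.85% against 3.82%, was not called (1.03 points, SE 1.13, limma adjusted p = 0.427). In the N001 stages no copy was called: 0 of 15 copies were higher (background 0.103%) or lower (background 0.0%) in N001_P than in N001_M, and 0 were higher (background 0.0%) or lower (background 0.0%) in N001_F. By limma, 0 members were at an unadjusted p under 0.05 in N001_P (64 of all 973 copies) or in N001_F (64 of all 972 copies). Without the trend, 0 members were called. The widest difference was 6.08 points (SE 3.44) for HELPO1.1-7C in N001_P, where only 2 libraries were measured.

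Small RNA of the HELPO1 copies summed to 825 ± 201 RPM in PC15, 886 ± 35.2 in PC9 and 822 ± 435 in N001_HyB, with overlapping libraries. Over the copies that overlap no other TE, which leaves out HELPO1.2-1A, HELPO1.2-8B and HELPO1.2-10A, the difference in summed small RNA was 428 RPM for PC9 minus PC15 and -469.6 RPM for N001_HyB minus PC9, against 61.2 and -64.5 over all 15 copies. For N001_M minus N001_HyB the sign turned, from -312 RPM over all 15 copies to 137 RPM over those that overlap no other TE. As a share of TE small RNA reads, HELPO1 held 0.92% ± 0.55 in PC9 against 0.12% ± 0.030 in PC15 and 0.13% ± 0.054 in N001_HyB. N001_M had 510.3 ± 85.8 RPM, N001_P 360.2 ± 242 and N001_F 383 ± 67.8. HELPO1 held from 0.10% to 0.92% of TE small RNA reads on average. As with mRNA, different copies stood behind the sums: HELPO1.2-1A held 73.2% ± 5.35 of the HELPO1 small RNA in PC15 and 75.9% ± 8.86 in N001_HyB. In PC9 the share of HELPO1-7A was 61.4% ± 37.8, with the lowest value, 17.7%, in replicate 1.

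HELPO1-7A had 23.5, 34.4 and 21.6 RPM of small RNA in PC15, and 162, 714 and 737 in PC9. N001_HyB had 62.0, 20.7 and 35.1 RPM, N001_M 31.8, 78.3 and 72.4, N001_P 53.0, 43.2 and 48.1, and N001_F 18.1, 10.4 and 34.9. All PC9 libraries were above every other library, though replicate 1 by much less than the others. HELPO1.1-5A, by contrast, had 52.4, 105 and 83.1 RPM in PC15 and 0.52, 0.78 and 0 in PC9, from 3, 1 and 0 reads. It had 58.7, 62.0 and 57.6 RPM in N001_HyB, 135, 165 and 178 in N001_M, 141, 43.2 and 54.1 in N001_P and 60.9, 41.8 and 68.0 in N001_F. PC9 was again the only low group.

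HELPO1.2-1A had 406, 656 and 771 RPM in PC15 and 688, 29.8 and 14.99 in PC9, so replicate 1 of PC9 fell within the PC15 range and the others far below it. In N001_HyB it had 1129, 475 and 345 RPM, in N001_M 217, 162 and 223, in N001_P 352, 63.7 and 93.2 and in N001_F 247, 229.9 and 73.5. HELPO1-7B had 29.6, 28.1 and 29.9 RPM in PC15, 53.8, 87.0 and 135 in PC9 and 54.6, 36.1 and 30.6 in N001_HyB. Its N001 stage libraries ran from 11.4 to 86.3 RPM. HELPO1.2-11C was highest in PC15, with 44.01, 53.1 and 54.8 RPM, against 7.83, 12.5 and 9.995 in PC9, 9.10, 32.3 and 19.8 in N001_HyB, and 4.55 to 47.8 in the N001 stages.

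**Figure D4:**
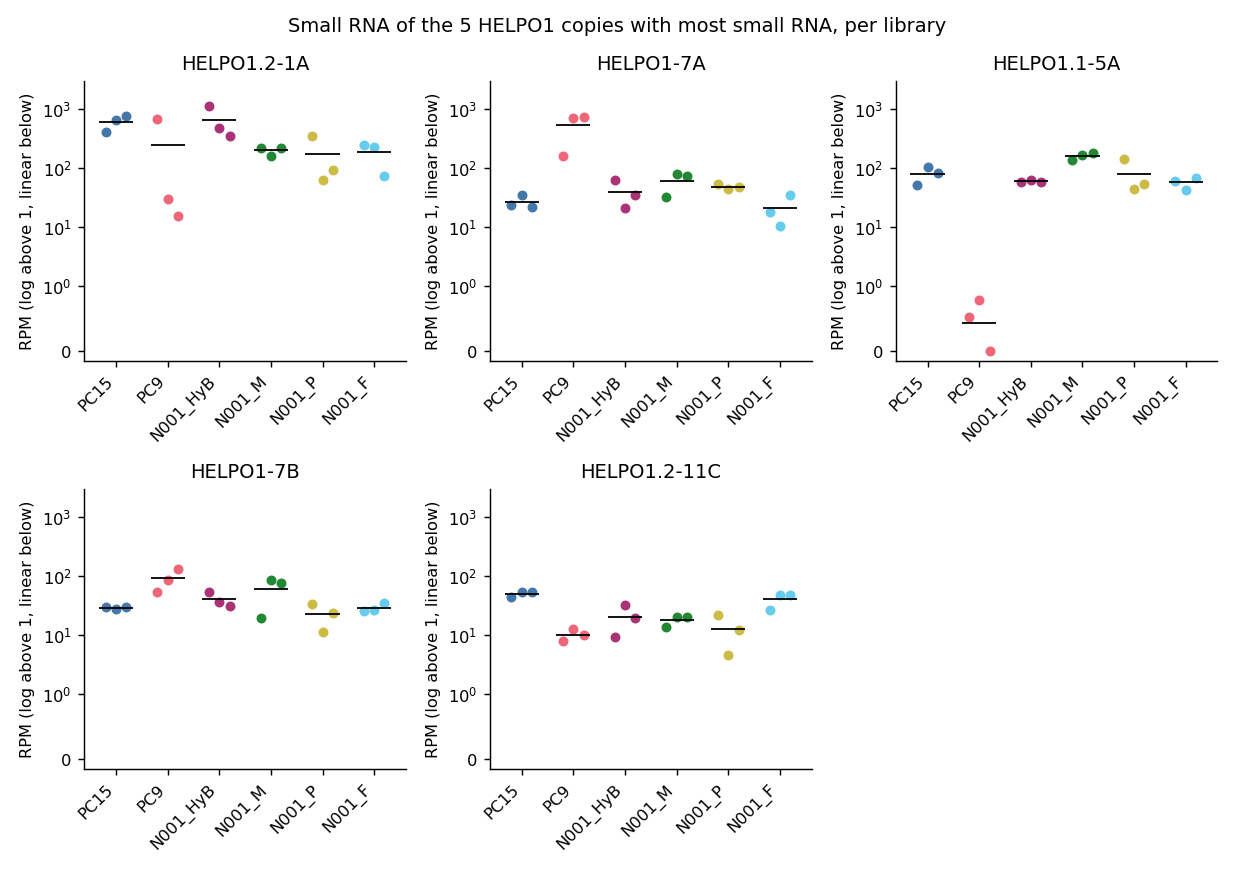
Small RNA level in RPM (y axis, logarithmic above 1 and linear below) of the 5 HELPO1 copies with the highest mean small RNA; each point is 1 library (replicates 1 to 3 from left to right) and each line the group mean. HELPO1-7A is highest and HELPO1.1-5A lowest in PC9, and replicate 1 of PC9 lies apart from the other PC9 libraries for HELPO1.2-1A and HELPO1-7A.

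The small RNA filter was passed by 6 members and not by the other 9. Between the monokaryons, 1 of 6 was higher in PC9 (background 16.9% of 633 copies), HELPO1-7A by 20.2-fold (log2 fold change 4.34, SE 0.94, edgeR adjusted p = 0.00157), and 3 were lower (background 29.4%). The lower members were HELPO1.1-5A, 132-fold (-7.05, SE 1.04, edgeR adjusted p = 7.59e-05), HELPO1-11B (-4.64, SE 1.16, edgeR adjusted p = 0.00394) and HELPO1.2-11C (-2.31, SE 0.85, edgeR adjusted p = 0.0336), of which the last was called in 3 of 12 alternatives. The HELPO1-11B call rested on few reads, at 10.4 RPM in PC15 and 0.32 in PC9, with 143 reads over all 18 libraries. HELPO1.1-5A and HELPO1-11B had no methylation value in PC9, and whether they exist in the PC9 genome was not tested. Without replicate 1 of PC9, HELPO1.2-1A went from -1.32 (edgeR adjusted p = 0.342) to -4.75 (edgeR adjusted p = 0.000845), and HELPO1-7B from 1.65 (edgeR adjusted p = 0.0999) to 1.92 (edgeR adjusted p = 0.0353). HELPO1-7A, HELPO1.1-5A, HELPO1-11B and HELPO1.2-11C were called with and without that library. Without it, 10.8% of all copies were called higher in PC9 and 44.3% lower, so the share called lower grew over all copies too. Over all TE copies, 107 were higher and 186 lower in PC9 with library totals, against 174 and 140 under TMM factors from TE reads and 197 and 138 under DESeq2's size factors. The same settings gave 210 and 14, 172 and 59, and 159 and 103 for N001_HyB against PC9, and 7 and 94, 24 and 112, and 63 and 119 for N001_M against N001_HyB.

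In N001_HyB against PC15, 0 of 6 members were higher (background 19.6%) and 0 lower (background 3.0%), with 0 at an unadjusted p under 0.05 (224 of all 633 copies). DESeq2 called none of the members with either scaling. Against PC9, 2 were higher (background 33.2%), HELPO1.1-5A by 6.62 (SE 1.02, edgeR adjusted p = 0.000207) and HELPO1-11B by 4.07 (SE 1.14, edgeR adjusted p = 0.0101), and 1 was lower (background 2.21%), HELPO1-7A by -3.77 (SE 0.91, edgeR adjusted p = 0.00425). Few reads lay behind the HELPO1-11B call, at 7.10 RPM in N001_HyB and 0.32 in PC9. Without replicate 1 of PC9, HELPO1.2-1A joined the higher members (4.84, edgeR adjusted p = 0.000759). In that fit, 59.7% of all copies were called higher and 2.08% lower. In N001_M against N001_HyB, 0 of 6 were higher (background 1.11%) and 0 lower (background 14.8%), with 0 at an unadjusted p under 0.05 (188 of all 633 copies). DESeq2 with its own size factors called 1 member higher.

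During development, 0 of 6 members were higher (background 0.0%) or lower (background 0.0%) in N001_P than in N001_M, and 0 were higher (background 0.0%) or lower (background 0.0%) in N001_F, by edgeR. In N001_F against N001_M, 1 of 6 members had an unadjusted p under 0.05, beside 82 of all 633 copies. It was HELPO1-11B, with 32.9, 47.0 and 29.4 RPM against 1.51, 11.9 and 4.02 (log2 fold change 2.60, edgeR adjusted p = 0.328). HELPO1-11B was highest in N001_F and so passed the filter mainly through that group. The libraries did not overlap, but the counts were low, from 9 to 40 reads per N001_F library and 1 to 9 per N001_M library. In N001_P no member had an unadjusted p under 0.05, beside 45 of all 633 copies. DESeq2 called no member in these comparisons.

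Set side by side, the readouts did not move together in the same way in every copy. In PC9 against PC15, HELPO1-7A rose in mRNA, in small RNA and in methylation (14.1% ± 0.96 to 36.1% ± 2.86). HELPO1-7B rose in mRNA and in methylation (14.1% ± 0.35 to 25.6% ± 2.84). In HELPO1-8A, HELPO1.2-1A and HELPO1.2-11C, mRNA fell while methylation rose; none of these 3 falls in mRNA was called under TMM factors or DESeq2's size factors from TE reads, where HELPO1.2-11C changed sign under both and HELPO1.2-1A under DESeq2's. In N001_M against N001_HyB, HELPO1-7B fell in mRNA and rose in methylation from 13.8% ± 1.64 to 38.5% ± 1.17. HELPO1-7A had almost the same methylation in N001_M (35.4% ± 0.46) as in PC9 (36.1%), with 21.7 RPM of mRNA against 1205.

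HELPO1.1-5A had both mRNA above 120 RPM and methylation between 0.18% and 0.33% in every library of the 5 groups in which its methylation was measured. Per kb, its group means there were 22.5 to 35.1 RPM. HELPO1-5B and HELPO1.2-8B, fragments whose methylation was also near 0% in all groups, had group means of 3.67 to 12.01 and of 0 to 2.01 RPM per kb, from few reads. HELPO1.2-11A, near 0% wherever it had a value, had no mRNA read. Total TE mRNA and total TE small RNA also differed between the groups, and their part in the differences of single copies was not tested.

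**Figure D5:**
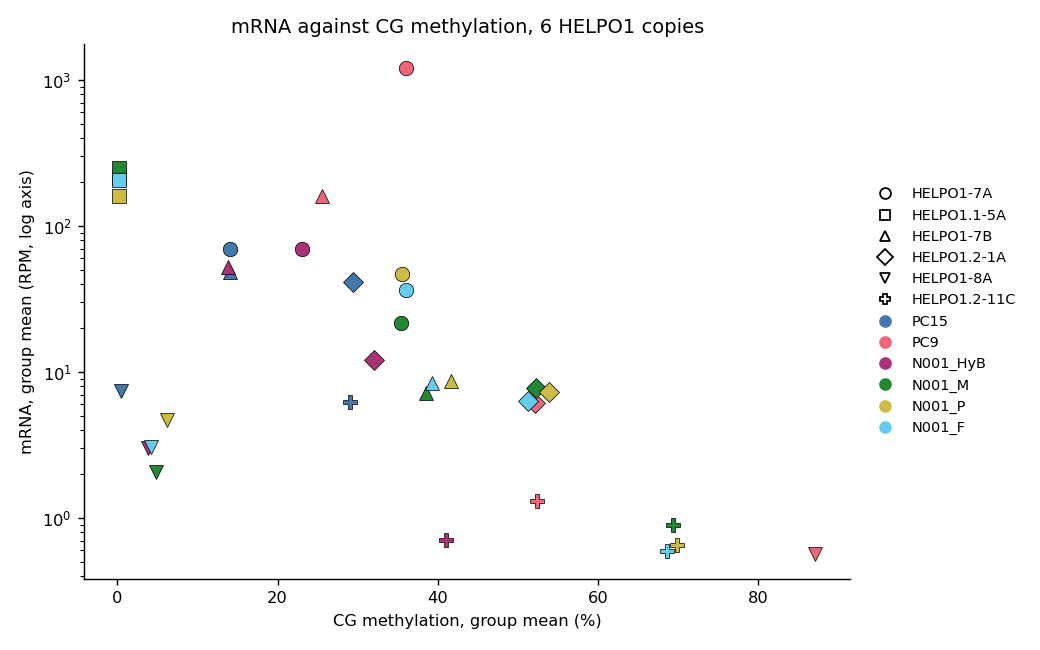
Group mean mRNA (y axis, RPM, logarithmic) against group mean CG methylation (x axis, percent) for the 6 HELPO1 copies with most mRNA; symbols are copies and colours are groups, and HELPO1.1-5A has no PC9 value. HELPO1-7A in PC9 lies at 1205 RPM and 36.1%, HELPO1.1-5A lies near 0% in all 5 groups shown with overlapping symbols, and HELPO1-8A in PC9 lies at 87.2%.

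HELPO2, another Helitron family with 14 listed copies, had less mRNA per kb than HELPO1 in every group, and more small RNA per kb in every group but PC9. Per kb of listed sequence, HELPO1 mRNA was 7.59 RPM in PC15, 26.7 in PC9 and 5.64 in N001_M, against 0.19, 0.040 and 0.044 for HELPO2. Small RNA per kb was 15.99 RPM in PC15 for HELPO1 and 562 for HELPO2, but 17.2 against 4.21 in PC9. On the log2 scale, HELPO1 to HELPO2 small RNA was -5.16 ± 0.21 in PC15, 2.33 ± 1.08 in PC9, -2.30 ± 0.51 in N001_HyB, -3.82 ± 0.93 in N001_M, -3.91 ± 1.19 in N001_P and -3.28 ± 0.13 in N001_F (SD, n = 3). For mRNA the log2 ratio was 5.34 ± 0.76 in PC15, 9.31 ± 0.24 in PC9 and 6.28 ± 0.17 in N001_HyB. PC9 did not overlap with PC15 or N001_HyB in either ratio, and no test is given for them. HELPO1.2-1A, which holds the Gypsy_1 copy, made up 73.2% of HELPO1 small RNA in PC15 and 75.9% in N001_HyB. With only the copies that overlap no other TE, the N001_M minus N001_HyB difference changed sign in both ratios.

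Outside HELPO1, the TE copies whose mRNA was most alike to the summed HELPO1 mRNA over the 18 libraries, by Pearson's r on log2(RPM + 0.1) among 420 copies, were Gypsy_33 on scaffold 11 (844550 to 844813, r = 0.75), Gypsy_25 on scaffold 1 (4754679 to 4754831, r = 0.74), Gypsy_33 on scaffold 2 (792671 to 792769, r = 0.74), Gypsy_2 on scaffold 3 (363023 to 369704, r = 0.69) and LINE_1 on scaffold 2 (1367419 to 1367578, r = 0.68). In that order, their mean mRNA was 6.45, 1.99, 0.84, 3.097 and 4.81 RPM in PC9 and 2.55, 0.40, 0.57, 4.83 and 0.35 RPM in PC15, so Gypsy_2 was lower in PC9 and the others higher. The 18 libraries share their groups and total TE levels, so r is a description.

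Within 1 kb of 14 of the copies lay 19 genes, and none shared bases with a copy. Gene mRNA is in RPKM as deposited, and no test was run on these genes. Distances are counted from the end of one feature to the start of the next. The gene nearest to HELPO1.1-5A, 1104409, starts 11 bases past its end and had 15.1 to 23.2 RPKM on average in all groups, PC9 included (23.2 ± 2.56, n = 3), with methylation of 0.18% to 0.48%. On the side of HELPO1-7A, gene 1106538, 66 bases away, had at most 0.35 RPKM in any group mean, also in PC9 (0.12 ± 0.0069). Its methylation was 0.55% ± 0.10 in PC9 and 29.1% ± 2.51 in PC15, the reverse of the order in HELPO1-7A itself.

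Further neighbours, chosen after their values were seen, lie next to copies described above. Gene 1099799, 436 bases from HELPO1-1B, had 16.4 ± 1.52 RPKM in PC15 and 9.86 ± 4.02 in N001_HyB, and at most 0.083 RPKM on average in PC9 and the N001 stages. Its methylation was 30.3% ± 1.08 in PC15, 9.21% ± 3.23 in N001_HyB and 68.8% ± 2.79 in N001_M. Gene 169883, 539 bases from HELPO1.1-7C, had 7.04 ± 3.45 RPKM in PC15 and 0.67 ± 0.085 in N001_HyB, and at most 0.0078 on average in PC9 and the N001 stages. The nearer neighbour of that copy, gene 1085356 at 94 bases, was highest in N001_M, with 18.5 ± 12.02 RPKM, against 4.97 ± 0.64 in PC15, 2.06 ± 0.57 in PC9, 10.6 ± 0.95 in N001_HyB, 0.94 ± 0.13 in N001_P and 0.60 ± 0.081 in N001_F. Its methylation was 12.6% in PC15, 0.60% in PC9, 6.07% in N001_HyB and 48.7% to 49.1% in the N001 stages. Gene 1067168, 156 bases from HELPO1-8A, had 80.7 ± 11.8 RPKM in PC15, 49.7 ± 5.63 in PC9, 36.0 ± 5.62 in N001_HyB and 20.8 ± 4.53, 34.8 ± 8.09 and 34.9 ± 4.08 in N001_M, N001_P and N001_F, and its own methylation was 0.20% to 0.25% on average in all groups. Gene 1096979, 964 bases from HELPO1-5B, had 60.7 ± 4.27 RPKM in PC15, 1.82 ± 0.61 in PC9 and 6.30 to 9.14 on average elsewhere. Gene 1046178, 255 bases from HELPO1-7A, ran from 1.87 ± 0.19 in N001_P to 35.2 ± 26.6 in N001_HyB, and gene 171221, 850 bases from HELPO1.2-10A, from 0 in PC9 to 3.68 ± 1.39 in PC15. Genes 1099799, 169883 and 171221 had no methylation value in PC9, and whether they exist in the PC9 genome was not tested.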

How the data were processed

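Of 53 libraries, 18 hold mRNA, 18 small RNA and 17 DNA converted with bisulfite. TE copies have read counts for mRNA and small RNA as deposited by the authors, genes have small RNA counts and mRNA in RPKM as deposited, and methylation is a fraction per gene or copy as deposited, multiplied by 100 here to give percent. Per the submitters' processing notes, FastQC, STAR 2.3.16 (mRNA) and BS-Seeker2 (bisulfite) were used; the genome build, the counting tool, its use of strand and its treatment of reads with several matches are not known from these notes. Reads aligned to TE copies alike in sequence may thus be split, dropped or counted several times, which changes levels of single copies.

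Library totals for mRNA were recovered from the gene RPKM values, of which 95.5% to 95.8% per library gave whole reads within 0.01; 8 gene rows without a readable location were left out. Counts of all TE copies were tested with edgeR 4.0.16 (quasi-likelihood, filterByExpr, library totals, 6 groups in 1 fit) and percent methylation with limma 3.58.1 (trend, at least 2 values in each group compared), in R 4.3.3, with Benjamini-Hochberg adjustment over all copies tested and a threshold of 0.05. The SE printed with an edgeR log2 fold change is its absolute value divided by the square root of the test's F statistic. DESeq2 1.42.0, TMM factors, no filter, a replicate block, and leaving out each library were alternatives. The scripts were tested on simulated data. Members and lists were chosen with earlier results of these data known. Values per library are given for the 6 copies with the highest mean mRNA, the 5 with the highest mean small RNA and the 5 with the widest range of methylation, with other called copies named. Same-numbered libraries deviated together (correlation over 0.1 in every pair) in mRNA for N001_M against N001_HyB (0.229 to 0.347), N001_P against N001_M (0.108 to 0.383) and N001_F against N001_M (0.133 to 0.472), from replicate numbers in the titles. N001_P and N001_HyB replicates 2 and 3 were kept as separate libraries, and summing them left the number of called members unchanged.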

Additional observations from a re-analysis of the deposited data

How the results depend on the processing

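Depth limits the short copies, most of which had few reads, and coverage behind methylation is unknown. For differences in summed level, values scaled to TE reads in place of library totals (RPM of TE reads) turned positive in mRNA (N001_HyB minus PC15 76357, N001_M minus N001_HyB 39259, N001_P minus N001_M 39013, N001_F minus N001_M 76590) and in small RNA (N001_HyB minus PC15 76.7, N001_M minus N001_HyB 395). With copies that overlap no other TE, N001_M minus N001_HyB was 137 RPM in summed small RNA, -0.17 in the log2 HELPO1 to HELPO2 mRNA ratio and 0.084 in the small RNA ratio, and N001_P minus N001_M was 0.24 in the latter. The N001_F minus N001_M difference in mean methylation was -0.12 points weighted by length and -0.096 among copies of at least 500 bases, and the mRNA ratio was -0.023 with a pseudocount of 1.

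Leaving out 1 library gave ranges for summed small RNA of -52.1 to 139 RPM (PC9 minus PC15), -251 to 155 (N001_HyB minus PC15) and -313 to 94.0 (N001_HyB minus PC9). For N001_F minus N001_M the range was -0.40 to 0.77 points in methylation and -0.068 to 0.11 in the mRNA ratio, and for N001_P minus N001_M -0.82 to 0.19 in the mRNA ratio and -0.77 to 0.45 in the small RNA ratio. Called members ranged from 3 to 5 (mRNA, N001_HyB minus PC15), 1 to 3 (mRNA, N001_M minus N001_HyB) and 6 to 8 (methylation, N001_HyB minus PC15). In the same fits, 69.8% to 78.6% of all copies were called lower and 4.03% to 5.52% higher for N001_HyB minus PC15 in mRNA. For N001_M minus N001_HyB in mRNA, 28.6% to 35.1% were called lower and 1.28% to 1.91% higher. For N001_HyB minus PC15 in methylation, 33.5% to 37.5% were called higher and 8.89% to 11.1% lower.

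Without a filter on low counts, 11 of 14 members were called in mRNA for PC9 minus PC15, 2 higher and 9 lower, beside 2.38% and 59.7% of 924 copies. For N001_HyB minus PC15 in mRNA, TMM factors from TE reads gave 5 calls, 3 higher and 2 lower (18.4% and 46.4% of 304 copies), and DESeq2's size factors 6, 4 higher and 2 lower (17.4% and 28.6% of 472). For N001_M minus N001_HyB those size factors gave 5 calls in mRNA, 4 higher and 1 lower (6.89% and 21.5% of 508), and 1 in small RNA, higher (9.38% of 672). DESeq2 with library totals gave 1 for N001_F minus N001_M in mRNA, lower (4.66% of 365). HELPO1.2-1A turned to 0.29 (DESeq2's size factors) for PC9 minus PC15, and to 0.052 (TMM) and 0.33 (DESeq2's size factors) for N001_HyB minus PC15. HELPO1.2-11C turned to 0.35 (TMM) and 0.79 (DESeq2's size factors) for PC9 minus PC15. The cause of these changes was not tested.

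In a fit with the replicate block, the counts of called members in the mRNA comparisons whose numbers pair the libraries were unchanged: 1 higher and 2 lower for N001_M minus N001_HyB (1.87% and 38.1% of all copies), and 0 along development. In the others the libraries share only a number. There the block gave in mRNA 2 higher and 5 lower, 7 calls, for PC9 minus PC15 (3.74% and 85.5% of all copies), 0 and 4 for N001_HyB minus PC15 (4.91% and 78.04%) and 2 and 2 for N001_HyB minus PC9 (43.7% and 5.84%). In small RNA it gave 1 and 3 (13.9% and 30.96%), 0 and 0 (20.7% and 2.53%) and 2 and 1 (34.6% and 1.74%) for these, and 0 in the other comparisons. In methylation it gave 7 and 0 (79.5% and 4.05%), 7 and 1 (37.5% and 10.7%) and 1 and 7 (4.74% and 76.7%), and 8 and 1 for N001_M minus N001_HyB (73.3% and 3.93%), with 0 along development. Against the fit without the block, HELPO1.2-1A (limma adjusted p = 0.0564) and HELPO1.1-7C (0.0558) lost their calls for N001_HyB minus PC15.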
